A study of Homo sapiens with 21 samples.

Results

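The subject here is RUNX1 occupancy at 4 genes that mark or decide the choice between the CD4 and CD8 T-cell lineages: ZBTB7B, CD8A, CD8B and CD4. Peaks were taken when their summit, the base of highest signal, lay in 1 of 3 hg19 windows, which were chr1:154955-155001 kb for ZBTB7B, chr2:86990-87110 kb for the neighbouring genes CD8A and CD8B, and chr12:6870-6940 kb for CD4. The windows held 328 of 791439 peaks, which fell into 60 of the 190855 regions made by merging nearby summits of all lists. ChIP-seq of tagged RUNX1 was done in untreated Jurkat cells, an established human T-cell acute lymphoblastic leukaemia line, in knock-in single clones and in cells labelled parental. The truncating genotypes R232fs, a frameshift, and Y287X, a stop codon, and the missense genotype G365R each had 2 clones. Each mutant clone gave an HA peak list, from anti-HA on the mutant protein, and a TY1 peak list, from anti-TY1 on the wild-type protein of the same cells. WT, the cells labelled parental, gave 1 HA and 1 TY1 list, and per the labels both tags marked wild-type protein there. How the tags were introduced into WT is not given in the sources used here, and WT is counted below as 1 clone. These 14 lists held 30563 to 86433 peaks, and 7 control samples were not analysed here.

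During thymic development a cell that carries both CD4 and CD8 on its surface keeps one of these coreceptors and silences the other. ZBTB7B encodes ThPOK, the transcription factor that directs cells to the CD4 lineage, and in mouse thymocytes RUNX proteins act through silencer elements of the Cd4 gene and of the ThPOK gene and through enhancers of the Cd8 genes. CD4 is the coreceptor for MHC class II, and CD8A and CD8B encode the chains of the coreceptor for MHC class I. RUNX1 binds DNA through its Runt domain at sites of the core TGTGGT or TGCGGT.

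RefSeq promoters of GRCh38.p14 were supplied for CD8A (4 starts) and ZBTB7B (2 starts), each reaching from 250 bases before the start to 50 after it. They were searched on both strands for TGTGGT and TGCGGT, which differ in a single letter and so cannot both match at the same position. Of these promoters 1 of 4 for CD8A and 0 of 2 for ZBTB7B held a match, against 19.6% of all 35116 promoters in the table. The CD8A promoter with the match is shown because it is the only 1 of the 6 promoters searched in which these letters were found; CD4 and CD8B were not searched. It lies at chr2:86791631-86791930 on the minus strand of GRCh38.p14, and capitals mark the match, ACCGCA as read, at bases 93 to 98, which is TGCGGT on the other strand.
CD8A promoter: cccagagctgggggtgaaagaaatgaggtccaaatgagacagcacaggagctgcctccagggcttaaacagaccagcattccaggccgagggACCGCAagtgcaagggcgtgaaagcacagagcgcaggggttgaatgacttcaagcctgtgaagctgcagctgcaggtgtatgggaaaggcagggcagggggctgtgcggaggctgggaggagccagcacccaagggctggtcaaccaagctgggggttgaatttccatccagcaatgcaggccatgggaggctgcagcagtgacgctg
This sequence was not placed against the hg19 peaks, so whether a peak covers it is not known here, and a match of letters is not a measured site.

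RUNX1 peaks lay in all 3 windows in each of the 14 lists. A region was counted in a list when a summit of that list fell inside it, and regions found in 7 or more lists were numbered along the chromosome within each window. Of the 60 regions 10 (16.7%) were in all 14 lists, against 5.92% of all regions of the series. In 7 or more lists there were 22 regions (36.7%, against 23.7% of all regions), and 22 regions were in 1 list only (36.7%, against 42.3%). The ZBTB7B window held 9 of its 15 regions in 7 or more lists, the CD8A and CD8B window 9 of 30, and the CD4 window 4 of 15. No hg19 gene models were used, so a region is not assigned to an exon, an intron or a promoter. The windows also reach past the genes: in the RefSeq table of GRCh38.p14 the flanking protein-coding genes are LENEP and DCST2 for ZBTB7B, RMND5A and RGPD1 for the CD8 pair, and LAG3 and GPR162 for CD4. CD8 region 1 and ZBTB7B region 1 lie at the low-coordinate edge of their windows and CD4 region 4 at the high-coordinate edge. By its GRCh38.p14 length CD4 fills 31.3 kb of a 70 kb window and ZBTB7B 16.8 kb of a 46 kb window. For these 3 regions, and for the others of the windows, the named gene and its neighbours were not told apart. The name of a region gives its window only.

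Fold enrichment is the authors' value, the signal at the summit over the local background, and it depends on each library and on the control given to the peak caller. The R232fs and Y287X lists also differed from the G365R and WT lists as wholes: the highest fold anywhere in a list was 174 to 369 in the 8 R232fs and Y287X lists, against 61 to 89.3 in the 6 G365R and WT lists. Inside the windows the median summit pileup (overlapping fragments at the summit) overlapped, with 65 to 126 in the first set and 94 to 124 in the second. Since genotype and set go together, a difference between these 2 sets of lists cannot be told apart from how the lists were made.

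**Figure D1:**
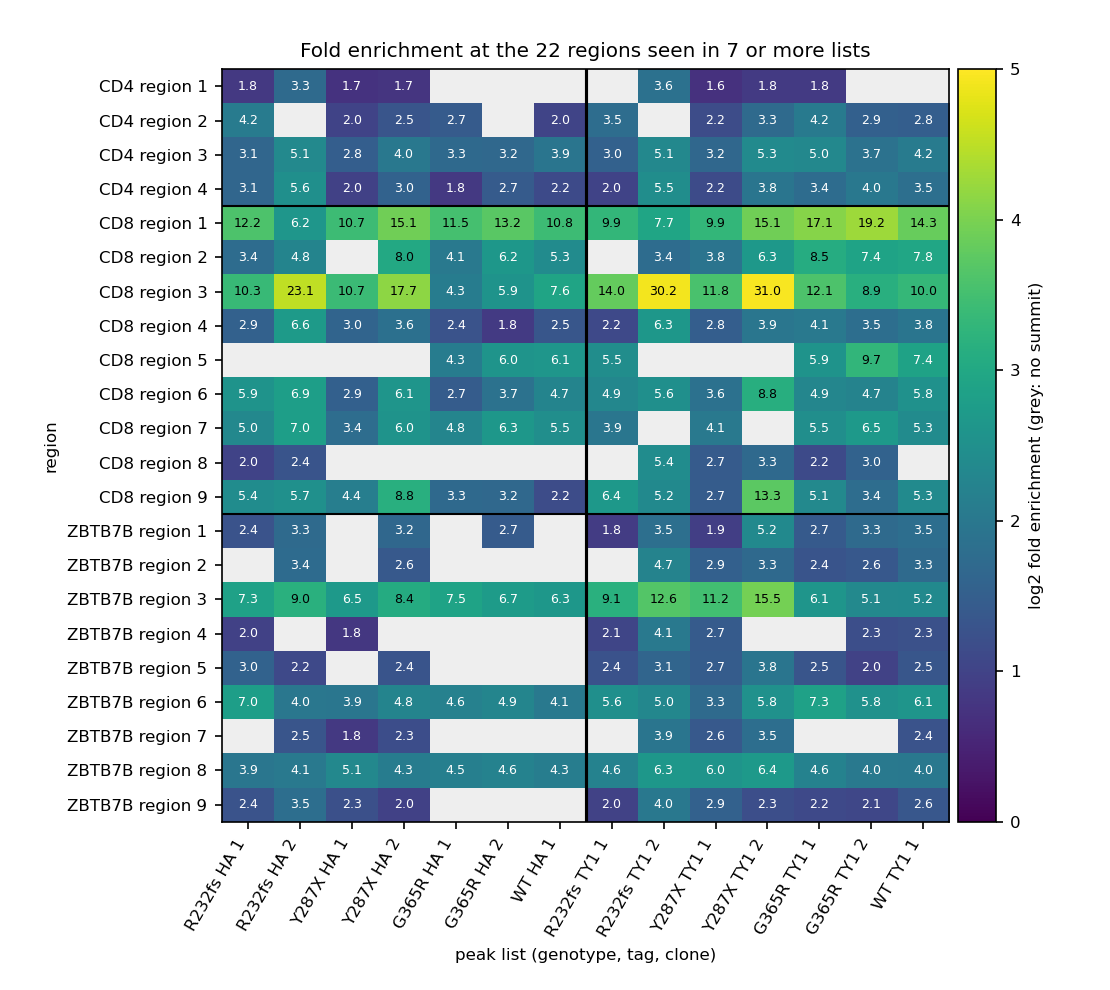
Fold enrichment in each of the 14 peak lists (columns, HA lists left of TY1 lists) at the 22 regions found in 7 or more lists (rows); colour is log2 fold, the printed number is the fold, and grey means that no summit of that list fell in the region. CD8 regions 1 and 3 and ZBTB7B region 3 carry the highest folds, and grey cells at ZBTB7B regions 2, 4, 5, 7 and 9 fill the 3 G365R and WT HA columns.

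At ZBTB7B the tagged mutant proteins had fewer peaks than the wild-type protein in most clones, a difference that did not pass its test. The number of ZBTB7B peaks was 9 and 9 in the R232fs HA lists, 6 and 8 in the Y287X HA lists and 3 and 4 in the G365R HA lists. It was 8 and 10 in the R232fs TY1 lists, 10 and 9 in the Y287X TY1 lists and 10 and 8 in the G365R TY1 lists. HA lists were thus lower in 5 of 6 mutant clones, the exception being the first R232fs clone, and both G365R HA lists lay below every TY1 list. The mean was 6.5 ± 2.59 peaks in HA lists and 9.17 ± 0.983 peaks in TY1 lists (SD, n = 6 each), a difference of −2.67 peaks (exact permutation of tags within genotype, 2-sided p = 0.0556, adjusted over the 3 windows 0.167; the smallest p possible is 0.00926). With tags exchanged within clones, the exact p was 0.125 (adjusted 0.375). WT, with no mutation, had 3 ZBTB7B peaks in its HA list and 10 in its TY1 list, the same numbers as in the first G365R clone.

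The length of a list moved with this count. The G365R HA lists held 30609 and 30563 peaks, against 57378 and 61793 in the G365R TY1 lists. With every list reduced to its 30563 strongest peaks, ZBTB7B peaks averaged 4.67 ± 1.21 in HA lists and 6.83 ± 1.33 in TY1 lists (SD, n = 6 each). HA was lower in 6 of 6 mutant clones, and the difference was −2.17 (exact permutation p = 0.0185, adjusted 0.0556). WT, with no mutation, then had 3 ZBTB7B peaks in its HA list and 7 in its TY1 list. Among the 15 ZBTB7B regions 10 were in more TY1 than HA lists and 1 in more HA than TY1 lists. Over all regions of the series these shares were 40.5% and 39.3%.

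The strongest ZBTB7B region was region 3, chr1:154971944-154972198, present in all 14 lists with pileups up to 1133. Its fold was 7.3 and 9.04 in the R232fs HA lists, 6.46 and 8.4 in the Y287X HA lists and 7.45 and 6.7 in the G365R HA lists, with 6.29 in the WT HA list. Its fold was 9.08 and 12.6 in the R232fs TY1 lists, 11.2 and 15.5 in the Y287X TY1 lists and 6.07 and 5.08 in the G365R TY1 lists, with 5.19 in the WT TY1 list. HA lay below TY1 in all 4 truncating clones and above TY1 in both G365R clones and in WT. The TY1 folds of the truncating clones did not overlap those of G365R and WT, whereas the HA folds of these sets did overlap. How often other regions found in all 14 lists show this was not counted.

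To compare lists, fold was ranked within each list over the 11291 regions found in all 14 lists and turned into normal scores, on which 1 unit is 1 SD of a list. The HA minus TY1 score at ZBTB7B region 3 was −0.17 and −0.11 in the R232fs clones, −0.45 and −0.38 in the Y287X clones, 0.90 and 0.78 in the G365R clones and 0.67 in WT. Negative scores in all 4 truncating clones with positive ones in the other 3 clones were found at 7.65% of the 11291 regions, and ZBTB7B region 3 was 1 of 10 tested members with this order. In limma fitted over all 11291 regions, the truncating minus G365R difference was −1.11 ± 0.17 (SE) with clone as a term (adjusted p = 0.0078) and did not pass without it (−1.11 ± 0.28, adjusted p = 0.223). G365R alone gave 0.84 ± 0.14 with the clone term (adjusted p = 0.0263) and 0.84 ± 0.23 without it (adjusted p = 0.834). The WT value of 0.67, from cells without a mutation, lay close to those of the G365R clones, and G365R minus WT was not tested. Without the first or the second G365R clone the truncating minus G365R call was lost (adjusted p = 0.078 and 0.054). The G365R call was lost without either G365R clone (adjusted p = 0.255 and 0.156) or the second Y287X clone (0.0505).

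**Figure D2:**
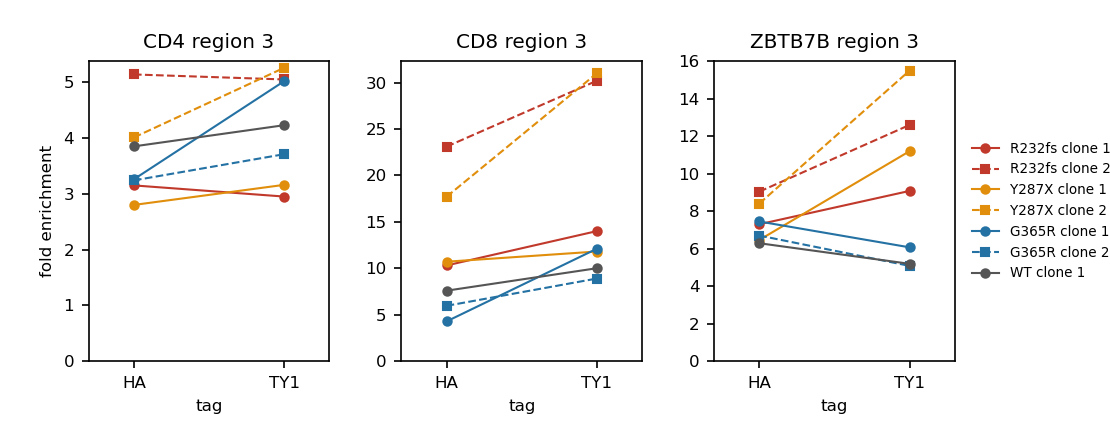
Fold enrichment (vertical axis, from 0, with its own scale in each panel) in the HA and TY1 list of each of the 7 clones, joined by a line, at the region of each window named in the panel title; colour is genotype and line style is clone. At ZBTB7B region 3 the 4 truncating clones climb toward TY1, whereas the 2 G365R clones and WT descend; at CD8 region 3 TY1 has the higher fold in all 7 clones.

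ZBTB7B region 8, chr1:154988681-154988929, was a weaker region with fold between 3.92 and 6.44 in the 14 lists. Its HA minus TY1 score was −0.23 and −0.47 in the R232fs clones, 0.05 and −0.21 in the Y287X clones, 0.65 and 0.66 in the G365R clones and 0.65 in WT. Here too the 3 clones without a truncation were the high ones and did not overlap with the 4 truncating clones. How many of all shared regions show such a separation was not counted. The truncating minus G365R difference was −0.87 ± 0.20 with the clone term (SE, limma, adjusted p = 0.0236), and this call was lost without the second Y287X clone or either G365R clone (highest adjusted p = 0.134). HA lists compared directly, truncating minus G365R, gave −0.81 ± 0.26 (adjusted p = 0.0711). It passed with ranks of −log10 p (−1.28, adjusted p = 0.0032) and without the first R232fs clone (−0.88, adjusted p = 0.0498), and was −0.30 over regions in at least 10 lists (adjusted p = 0.439). The third region in all lists, ZBTB7B region 6 at chr1:154982728-154982988, had fold between 3.3 and 7.27, and its HA minus TY1 scores took both signs in R232fs and in G365R.

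The remaining 6 numbered ZBTB7B regions each had no summit in some lists. Regions 2, 4, 5, 7 and 9 had no summit in any of the 3 G365R and WT HA lists, and region 1 had one in the second G365R HA list only. Of the 4 truncating HA lists, region 9 was in all 4, regions 1, 5 and 7 were in 3 and regions 2 and 4 were in 2. In TY1 lists regions 1, 5 and 9 were present in 7 of 7, region 2 in 6, region 4 in 5 and region 7 in 4. Peaks of 11 lists overlapped region 4. Among these, the second R232fs HA, second Y287X HA, second Y287X TY1 and first G365R TY1 lists had no summit in it. Fold at these 6 regions was low, from 1.76 to 5.17. ZBTB7B regions 2, 5 and 9 and 3 regions of the CD8 window were seen only under TY1 in both G365R clones. They made up 6 of the 33 member regions present in G365R, against 18.9% of all regions present in G365R, so their share was close to that of the series. Seen only under HA in both G365R clones were 0 of 33 member regions and 0.579% of all regions. Regions in all 4 lists of a genotype numbered 13 of 47 members in R232fs (19.9% of all regions present there), 15 of 38 in Y287X (26%) and 13 of 33 in G365R (24.9%).

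**Figure D3:**
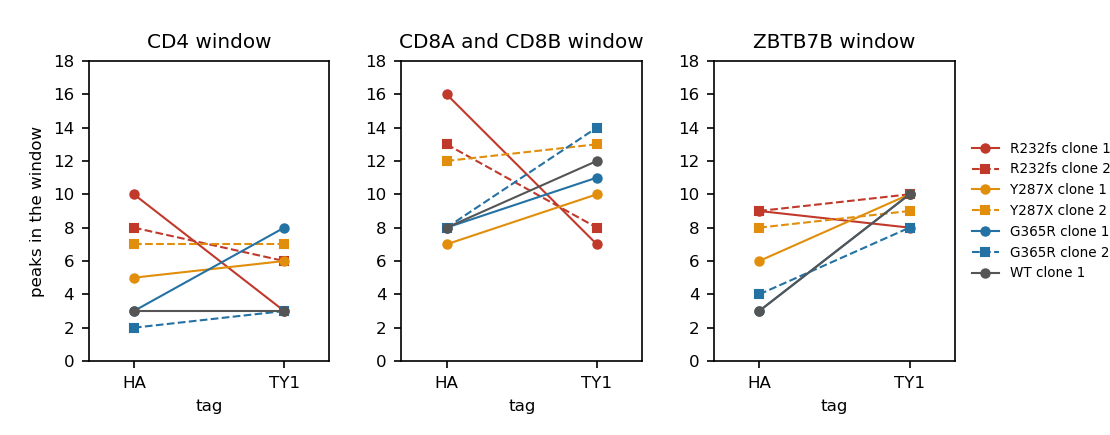
Number of peaks in each window (vertical axis, from 0) in the HA and TY1 list of each of the 7 clones, joined by a line; colour is genotype and line style is clone. In the ZBTB7B panel the first G365R clone and WT coincide at 3 HA and 10 TY1 peaks, and 6 of the 7 lines climb toward TY1; in the other panels lines run both ways.

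The CD8A and CD8B window held the highest folds of the 3 windows, but not the highest pileups. In the second Y287X TY1 list CD8 region 3 had a pileup of 145 over a local background of 3.72 (fold 31). In that list ZBTB7B region 3 had 1133 over 72.2 (fold 15.5), and CD4 region 4 had 162 over 41.7 (fold 3.82). CD8 region 3, chr2:87022029-87022321, had fold 10.3 and 23.1 in the R232fs HA lists, 10.7 and 17.7 in the Y287X HA lists, 4.27 and 5.95 in the G365R HA lists and 7.58 in the WT HA list. Its fold was 14 and 30.2 in the R232fs TY1 lists, 11.8 and 31 in the Y287X TY1 lists, 12.1 and 8.89 in the G365R TY1 lists and 10 in the WT TY1 list. In raw fold TY1 exceeded HA in every clone, and the truncating HA lists lay above the G365R and WT HA lists without overlap. Their pileups did overlap, with 50 to 116 in the truncating HA lists and 32 to 78 in the G365R and WT HA lists. The local background was 3.78 to 4.25 in the truncating HA lists and 6.4 to 9.43 in the G365R and WT HA lists. How many of all shared regions show such a separation of raw HA folds was not counted. In rank score no such order between tags was seen: HA minus TY1 was −0.15 and 0.06 in the R232fs clones, 0.14 and −0.21 in the Y287X clones, −0.82 and −0.08 in the G365R clones and 0.04 in WT. HA truncating minus HA G365R was 0.87 ± 0.33 in score (SE, limma, adjusted p = 0.108), which did not pass the threshold. It passed over regions in at least 10 lists (1.18, adjusted p = 0.0216) and did not with ranks of −log10 p (0.43, adjusted p = 0.314). Without the first R232fs clone it was 1.12.

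CD8 region 1, chr2:86990537-86990792, ranked above the median of the shared regions in 12 of 14 lists, the exceptions being both lists of the second R232fs clone (percentiles 38 in HA and 36.4 in TY1). Its fold was 12.2 and 6.18 in the R232fs HA lists, 10.7 and 15.1 in the Y287X HA lists, 11.5 and 13.2 in the G365R HA lists and 10.8 in the WT HA list. Its fold was 9.93 and 7.72 in the R232fs TY1 lists, 9.93 and 15.1 in the Y287X TY1 lists, 17.1 and 19.2 in the G365R TY1 lists and 14.3 in the WT TY1 list. The second R232fs clone was lowest under both tags. HA truncating minus HA G365R was −0.70 ± 0.30 in score (SE, limma, adjusted p = 0.149). It passed with ranks of −log10 p (−1.16, adjusted p = 0.00739) and without the first R232fs clone (−0.97, adjusted p = 0.0087), and was −0.32 over regions in at least 10 lists.

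Of all 11291 shared regions 1076 (9.53%) passed in this direct comparison of truncating with G365R HA lists, 639 higher (5.66%) and 437 lower (3.87%), and 0 of the 10 members did; 4 members had an unadjusted p under 0.05, against 29.7% of all regions. For HA minus TY1 within R232fs, within Y287X, within G365R and between truncating and G365R clones, 0 regions (0%) and 0 members passed in limma without the clone term. Unadjusted p was under 0.05 at 1368 (12.1%), 463 (4.1%), 590 (5.23%) and 1177 (10.4%) of 11291 regions in these comparisons, and at 0, 0, 1 and 2 of the 10 members. With the clone term 2 of 10 members were higher in HA within R232fs (10.4% of all regions were higher and 11.3% lower), and 0 of 10 passed within Y287X (0.815% of all regions, 0.266% higher and 0.549% lower). Within G365R 1 of 10 was higher (4.08% of all regions passed, 2.48% higher and 1.6% lower). Between truncating and G365R clones 1 of 10 was higher and 2 were lower (8.56% and 8.53% of all regions). The median HA minus TY1 score over the 10 members was 0.251 in R232fs, 0.115 in Y287X and 0.037 in G365R, and over all 11291 regions it was 0.006, −0.000 and −0.004.

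**Figure D4:**
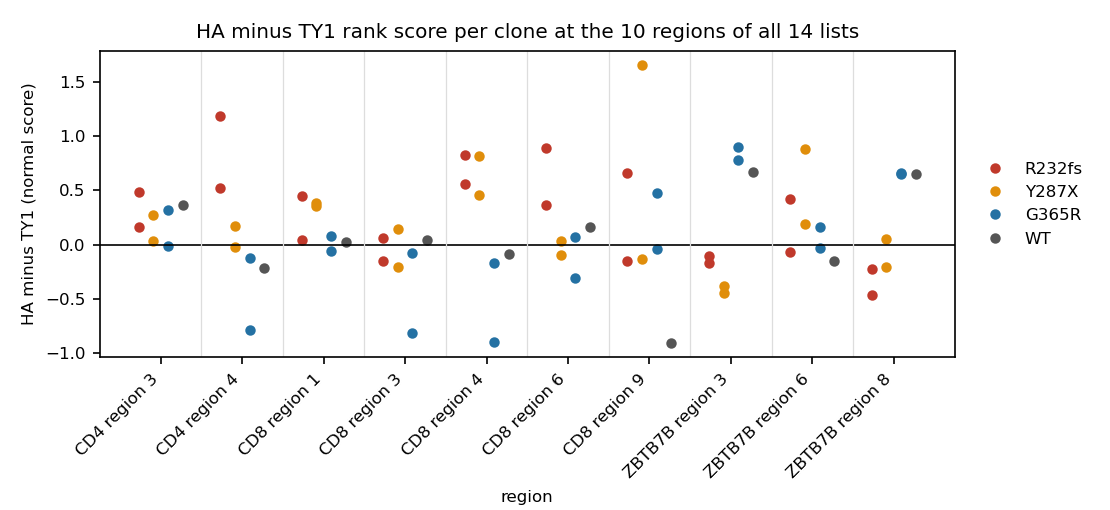
HA minus TY1 difference in rank score (vertical axis, 1 unit is 1 SD of a list's scores) in each clone at the 10 member regions found in all 14 lists; each point is 1 clone and colour is genotype, and the 2 G365R points coincide at ZBTB7B region 8. G365R and WT points lie above the truncating points at ZBTB7B regions 3 and 8 and below them at CD4 region 4 and CD8 region 4. The share of all shared regions with such a separation was not counted.

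CD8 region 4, chr2:87034685-87034966, was the CD8 region at which the truncating and G365R clones differed in direction. Its fold was 2.93 and 6.6 in the R232fs HA lists, 3.04 and 3.6 in the Y287X HA lists, 2.41 and 1.81 in the G365R HA lists and 2.53 in the WT HA list. In TY1 lists it was 2.16 and 6.27 in R232fs, 2.82 and 3.88 in Y287X, 4.06 and 3.48 in G365R and 3.85 in WT. The HA minus TY1 score was 0.83 and 0.56 in the R232fs clones, 0.82 and 0.46 in the Y287X clones, −0.17 and −0.90 in the G365R clones and −0.09 in WT. Positive scores in all 4 truncating clones with negative ones in the other 3 were found at 8.34% of all shared regions. The truncating minus G365R difference was 1.21 ± 0.28 with the clone term (SE, limma, adjusted p = 0.0243) and 1.21 ± 0.68 without it (adjusted p = 0.596). It was lost without the first Y287X clone or either G365R clone (highest adjusted p = 0.15).

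CD8 region 6, chr2:87048396-87048691, was higher in HA than in TY1 of the R232fs clones. Its fold was 5.94 and 6.94 in the R232fs HA lists, against 4.95 and 5.6 in the R232fs TY1 lists, and the score difference was 0.63 ± 0.19 with the clone term (SE, limma, adjusted p = 0.0462) and did not pass without it. The call was lost in each of 6 fits that left out 1 clone (adjusted p from 0.0609 to 0.376). In WT the fold was 4.75 in HA and 5.77 in TY1. CD8 region 9, chr2:87069750-87070160, had no common direction: the HA minus TY1 score was 1.66 in the first Y287X clone and −0.13 in the second, and −0.91 in WT.

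Over the 10 shared member regions, HA fold was below TY1 fold in 25 of 30 pairs (83.3%) from the 2 G365R clones and WT. The ratio there was 0.354 to 1.32. In the 4 truncating clones HA fold was below TY1 fold in 24 of 40 pairs (60%) and above it in 16. Raw fold differed between tags over the whole lists: HA fold was below TY1 fold in 92.5% of pairs over all 11291 shared regions in the G365R clones and WT, and in 78% of pairs in the truncating clones. By rank score, HA was above TY1 in 15 of the 30 pairs of G365R and WT and below it in 15. In the truncating clones it was above in 26 of the 40 pairs and below in 14. A pair is 1 region in 1 clone, and pairs of the same clone are not replicates.

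CD8 region 5, chr2:87042858-87043161, separated the lists by presence. Its fold was 4.3 and 6.03 in the G365R HA lists and 6.14 in the WT HA list, and 5.91 and 9.73 in the G365R TY1 lists and 7.39 in the WT TY1 list. Of the 8 R232fs and Y287X lists only the first R232fs TY1 list had it, with a fold of 5.49. Presence in all 6 G365R and WT lists with at most 1 of the other 8 was found at 0.589% of all regions, and 1 of the 60 members had it. Both tags had the region in G365R and WT, so presence there followed the set of lists and not the tag.

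Beside it, at chr2:87041933-87042258, 3 of the 4 truncating HA lists had a summit and no other list had one, a pattern seen at 0.491% of all regions. The fold was 3.61 and 3.41 in the R232fs HA lists and 2.29 in the first Y287X HA list, with pileups of 23, 20 and 20 fragments. The second Y287X HA list had its summit at chr2:87041681-87041881, 315 bp away between region centres, with a fold of 3.61 and a pileup of 16. The centre of this truncating-only region lay 914 bp from that of CD8 region 5, and no list had both. With the stricter minimum of 5 on −log10 q, 1 of its 3 lists kept it, whereas CD8 region 5 kept all 7.

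**Figure D5:**
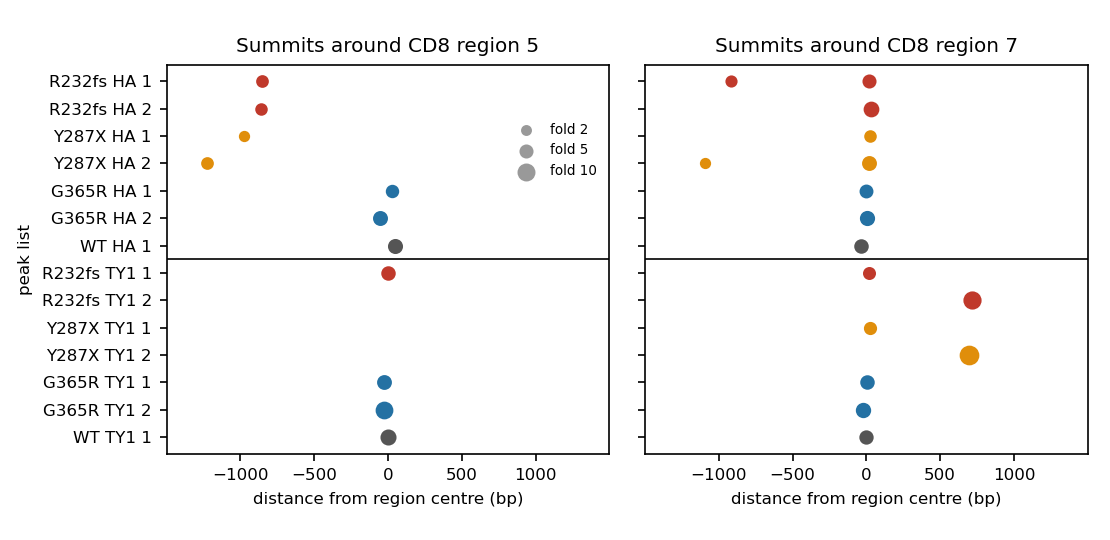
Distance of each nearby summit from the centre of CD8 region 5 (left) and CD8 region 7 (right), in bp, in each of the 14 lists (rows, HA lists above TY1 lists); colour is genotype and point area grows with fold. On the left the 4 truncating HA lists have their summits on the low-coordinate side and the G365R and WT lists at the centre; on the right 12 lists share 1 position and the second R232fs and second Y287X TY1 lists sit 706 bp away between region centres.

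CD8 region 7, chr2:87052476-87052743, was in 12 lists with fold from 3.45 to 7.01. The 2 lists without it were the TY1 lists of the second R232fs and the second Y287X clone, whose summits lay at chr2:87053207-87053425 with folds of 10.4 and 12.7. In all 14 lists a peak covered both places, so the missing summit was a shift inside 1 broad peak and not a missing peak. The HA lists of the same 2 clones kept their summit in region 7.

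Other CD8 regions gave a mixed picture of tag by genotype. CD8 region 8, chr2:87064637-87065063, was seen under TY1 and not under HA in both clones of Y287X and of G365R, with folds of 2.18 to 3.27 in those 4 TY1 lists. In R232fs both HA lists had it (2 and 2.45) and so did the second TY1 list (5.38). The region at chr2:86997931-86998330 had the same TY1 pattern in Y287X and G365R, with pileups of 14 to 17 fragments. With the stricter minimum of 5 on −log10 q, no list kept that region, and 4 lists kept CD8 region 8. These 2 regions were 2 of the 38 member regions present in Y287X, against 2% of all regions there, and 0 of 38 were seen under HA alone in both clones (1.13% of all regions). In R232fs 2 of 47 members were seen under HA alone in both clones, against 5.91% of all regions, and 0 of 47 under TY1 alone (0.401%). Those 2 were the region beside CD8 region 5 and chr2:87078708-87079006. At chr2:87078708-87079006 the G365R lists ran the other way, with folds of 3.55 and 5.21 in both TY1 lists and no summit in either HA list.

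By number, CD8 window peaks were 16 and 13 in the R232fs HA lists, 7 and 12 in the Y287X HA lists and 8 and 8 in the G365R HA lists. They were 7 and 8 in the R232fs TY1 lists, 10 and 13 in the Y287X TY1 lists and 11 and 14 in the G365R TY1 lists. HA exceeded TY1 in both R232fs clones and lay below it in the other 4, and WT had 8 HA and 12 TY1 peaks. The mean over the 6 mutant clones was 10.7 ± 3.56 in HA lists and 10.5 ± 2.74 in TY1 lists (SD; difference 0.167, exact permutation p = 1). List length again moved with the count, with 77691 and 86433 peaks in the R232fs HA lists, against 40112 and 59140 in the R232fs TY1 lists. In lists of equal length the R232fs counts were 6 and 6 in HA, against 7 and 7 in TY1.

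The CD4 window had the lowest folds, with 5.6 as the highest, and at that peak the pileup was 324 over a local background of 57. CD4 region 3, chr12:6901181-6901477, had fold 3.15 and 5.14 in the R232fs HA lists, 2.8 and 4.01 in the Y287X HA lists, 3.26 and 3.24 in the G365R HA lists and 3.85 in the WT HA list. Its fold was 2.95 and 5.05 in the R232fs TY1 lists, 3.16 and 5.26 in the Y287X TY1 lists, 5.02 and 3.71 in the G365R TY1 lists and 4.23 in the WT TY1 list. Lists of all genotypes and both tags overlapped. HA truncating minus HA G365R was −0.63 ± 0.28 in score (SE, limma, adjusted p = 0.166).

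CD4 region 4, chr12:6938453-6938749, had fold 3.12 and 5.6 in the R232fs HA lists, against 2.01 and 5.47 in the R232fs TY1 lists. In the other clones HA fold lay below TY1 fold, with 1.96 and 2.98 in Y287X HA, against 2.2 and 3.82 in Y287X TY1, and 1.77 and 2.71 in G365R HA, against 3.41 and 4.01 in G365R TY1. WT had 2.18 in HA and 3.53 in TY1. The R232fs score difference was 0.86 ± 0.25 with the clone term (SE, limma, adjusted p = 0.0426) and 0.86 ± 0.62 without it (adjusted p = 0.626). In fits that left out 1 clone the call stood in 2 of 6, with adjusted p up to 0.336.

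CD4 region 1, chr12:6875934-6876247, was in all 4 truncating HA lists (fold 1.66 to 3.3) and in 3 of the 4 truncating TY1 lists, and in 1 of the 6 G365R and WT lists. CD4 region 2, chr12:6892214-6892614, was in 11 lists with fold from 2.02 to 4.23. Neither tag had it in the second R232fs clone, and the third list without it was the second G365R HA list. The regions at chr12:6902150-6902412 and chr12:6930345-6930910 were each in 6 of the 8 R232fs and Y287X lists, 3 HA and 3 TY1, and in none of the 6 G365R and WT lists. At chr12:6930345-6930910 a peak of the first G365R TY1 list covered the region with its summit just outside, and with windows of 250 bp around summits the region was in 7 lists. The pattern held at 1.38% of all regions and at 2 of the 60 members, both in the CD4 window. Folds there were 1.52 to 3.66 in HA lists and 2.63 to 3.86 in TY1 lists. With the stricter minimum of 5 on −log10 q, chr12:6930345-6930910 was kept in 3 lists, all of them TY1 lists. At that minimum chr12:6902150-6902412 was kept in 5 lists.

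CD4 window peaks numbered 10 and 8 in the R232fs HA lists, 5 and 7 in the Y287X HA lists and 3 and 2 in the G365R HA lists. They numbered 3 and 6 in the R232fs TY1 lists, 6 and 7 in the Y287X TY1 lists and 8 and 3 in the G365R TY1 lists. R232fs clones had more HA than TY1 peaks, G365R clones had fewer, and WT had 3 of each. Means were 5.83 ± 3.06 in HA lists and 5.5 ± 2.07 in TY1 lists (SD, n = 6 each; difference 0.333, exact permutation p = 0.917).

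The windows of 8 other genes of T-lineage choice, all transcription factors or chromatin regulators (GATA3, MYB, TOX, RUNX3, TCF7, LEF1, BCL11B and SATB1), held 213 regions, of which 16 were in all 14 lists. In limma without the clone term 0 of 16 passed for HA minus TY1 within R232fs, Y287X or G365R or between truncating and G365R clones. With the clone term 1 of 16 was higher in R232fs (10.4% of all 11291 shared regions), 0 passed in Y287X (0.815%) and 1 was lower in G365R (1.6%). Between truncating and G365R clones 1 was higher and 1 lower (8.56% and 8.53% of all shared regions). The region higher in R232fs, lower in G365R and higher in truncating clones was the same one, chr5:133476235-133476479 in the window of TCF7, which encodes a factor of early T-cell commitment. Its score differences were 0.919 in R232fs (adjusted p = 0.0121), −1.01 in G365R (adjusted p = 0.0282) and 1.88 for truncating minus G365R clones (adjusted p = 0.00459). Truncating HA minus G365R HA lists differed by 1.87 there without a clone term (adjusted p = 0.00452), with 1 region of SATB1 lower by this comparison. Of all shared regions 5.66% were higher and 3.87% lower in this direct comparison. Whether the TCF7 calls hold when a clone is left out is not given here. The lower region between truncating and G365R clones was in the LEF1 window (−0.662, adjusted p = 0.0339). Median HA minus TY1 scores over the 16 were 0.163 in R232fs, 0.108 in Y287X and 0.227 in G365R.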

How the data were processed

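Tagged RUNX1 was profiled by ChIP-seq in Jurkat clones, and 14 deposited narrowPeak lists, 1 per library and not pooled, were used. The build was hg19 and the tools were CASAVA 1.8, Bowtie2 2.2.9 and the peak caller MACS2 2.2.7.1, per the submitters' processing notes. How the caller was set, and against which control, is not given in the sources used here. Each deposited peak carries a score and a linear ratio, the fold enrichment, with its p-value and q-value as −log10, all from the authors' peak calls. Library depth is not part of the files. Pileups were solved from the deposited fold and −log10 p with the caller's Poisson formula (tolerance of 0.01 in −log10 p). They came out whole at all member peaks of 12 lists, but at 13.8% in the first G365R TY1 list and 4% in the WT TY1 list; whether signal was scaled there was not tested.

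Windows of 100 bp on each side of every summit (chromosomes 1 to 22 and X) were merged across lists when they overlapped by 1 bp or more. Window counts were compared by exact permutation, 2-sided, with Benjamini-Hochberg adjustment over 3 windows. Ranks of fold at the 11291 shared regions, as normal scores, were compared in 8 groups with limma 3.58.1 (R 4.3.3, trend, adjusted over regions, threshold 0.05); the single lists of WT borrow the spread of the other groups. The fit and the pileup solution were tested on simulated data. For the fit, most of the spread was set as a clone effect shared by both tags, which favours the clone term, and only R232fs HA was shifted. There the fit without the clone term missed most shifts of 1 unit and the fit with it found nearly all. A miss without the term therefore does not show that values did not differ. Recovery at the weaker clone correlation of G365R (r = 0.503) was not simulated. Other work used Python 3.11.15, pandas 2.3.3, scipy 1.17.1 and matplotlib 3.10.9.

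Same-numbered HA and TY1 lists share a clone, as the clone names in the deposited file headers show, and their deviations correlated with r = 0.792 (R232fs), 0.702 (Y287X) and 0.503 (G365R), so clone as a term is given beside the fit without it. Clones are the replicates, with 2 per mutant genotype. Limma p-values rest on a spread pooled over genotypes and moderated over regions. Without the clone term it is the spread of lists within a group, with the HA and TY1 lists of a clone taken as independent. With the term it is the spread of HA minus TY1 differences between clones of a genotype. The p-values of window counts come from exchanging tags. The genes, windows and lists were chosen with earlier results of these data known. Named regions are those in 7 or more lists, or in both lists of 1 tag and neither of the other in a genotype; regions named for other patterns were chosen after their values were seen. An hg19 genome was not used here.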

Additional observations from a re-analysis of the deposited data

Results flagged for a closer look

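Each result below was picked out because the HA minus TY1 difference of one genotype differed from that of another. In limma with clone as a term, the truncating minus G365R difference in rank score passed at 3 of the 10 shared regions of the windows: 1.21 at CD8 region 4, −1.11 at ZBTB7B region 3 and −0.87 at ZBTB7B region 8. Of all 11291 shared regions 1929 (17.1%) passed in the same comparison. Without the clone term none of the 3 passed.

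Other differences were picked out only because both clones of one genotype moved one way and both clones of the other the opposite way, and they were not tested. For scores these were 1.31 (R232fs minus G365R) at CD4 region 4, 1.23 (R232fs minus G365R) and 1.18 (Y287X minus G365R) at CD8 region 4, −0.97 (R232fs minus G365R) and −1.25 (Y287X minus G365R) at ZBTB7B region 3, and −1.01 (R232fs minus G365R) at ZBTB7B region 8. For numbers of peaks they were 7.5 (R232fs minus G365R) in the CD4 window, and 9 (R232fs minus Y287X) and 11.5 (R232fs minus G365R) in the CD8A and CD8B window. List length moved with the counts of peaks: in lists of equal length the same differences were 0 in the CD4 window, and −2 and −0.5 in the CD8A and CD8B window.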

How the results depend on the processing

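The 2 window differences near 0 changed sign: CD4 to −0.833 in lists of equal length, −1.17 with −log10 q of 5 or more and −1 to 1.4 when a clone was left out, and CD8A and CD8B to −0.167, −0.667 and −1.6 to 1.4. ZBTB7B stayed negative, from −3.4 to −1.8 without a clone, and passed in no setting after adjustment. The paired permutation (replicate block) left the means at 0.333, 0.167 and −2.67 and changed no call. Calls over all shared regions moved with clone as a term (replicate block): 2445 in R232fs, 92 in Y287X, 461 in G365R and 1929 between truncating and G365R clones, against 0 without it. Ranks of −log10 p without the clone term gave 10 calls in R232fs, 47 in G365R, 282 between truncating and G365R clones and 4470 between their HA lists, against 1076 with ranks of fold. Regions in at least 10 lists gave 1 call in G365R and 4106 between HA lists, and there CD4 region 3 changed sign to 0.02 in truncating minus G365R HA lists. Leaving out a clone gave 1 to 2667 calls between HA lists: 1 without the second G365R clone, 6 without the first, 103 without the second Y287X clone and 2667 without the first R232fs clone. The cause was not tested. No paired fit can be made between HA lists of different genotypes, whose clones differ. Of the 6 member calls of the paired fit, and in alternatives chosen after seeing the data, regions in at least 10 lists lost CD4 region 4 (adjusted p = 0.115), CD8 region 6 (0.0951), ZBTB7B region 3 in G365R (0.0502) and ZBTB7B region 8 (0.191). Windows of 250 bp lost CD4 region 4 (0.0604) and CD8 region 6 (0.0613), and ranks of −log10 p lost CD8 region 6 (0.0978). Regions in all 14 lists numbered 10 with either window width and 8 with −log10 q of 5 or more.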
